A study of Mus musculus with 12 samples.

Results

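The 8 cardiac potassium channel genes Kcnd2, Kcnip2, Kcnj2, Kcnj11, Abcc9, Kcnq1, Kcnh2 and Kcna5 were followed in whole hearts of mice after a week of voluntary wheel running and in sedentary hearts. The group was named in advance for sodium as well as potassium channels, but all 8 genes encode potassium channel pores or their partners, so sodium channel genes are given below only for comparison. They are 8 of the 19057 genes named by the platform annotation, and all probes assigned to them were taken, 18 of the 45281 on the array. A probe was kept for testing where its detection p was under 0.01 on 6 or more of the 12 arrays, which held for 17098 probes, among them 13 of the members, from 7 genes. The arrays came from male C57Bl/6 mice aged 8 weeks, 6 labelled exercised and 6 labelled sedentary for 7 days. Replicates are numbered 1 to 6 within a group, and the labels do not state whether each number is its own animal. The p-values therefore reflect only the spread among these 12 samples, which may be technical.

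None of the 13 probes passed the test between exercised and sedentary hearts. The point estimates ran from -0.22 for Kcna5 to 0.59 for Kcnip2 on the log2 scale, and 9 of the 13 were higher in exercised hearts. Kcnip2, Kcnd2 and one probe of Abcc9 were higher, and Kcnj11 lower, on the 4 arrays of high raw background, a split by which 37.8% of all probes also differed. Among the 8 arrays of low background the 3 Kcnip2 estimates were 0.36 to 0.45 and did not pass the test (adjusted p of 0.24 to 0.37 in limma). The exercised arrays among these 8 include replicates 1 and 5, which are rich in liver transcripts. The high-background arrays hold 1 sedentary array, which stands apart for Kcnip2, and so give no comparison of their own.

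As background, potassium channels end the action potential of heart muscle cells and hold their resting potential. In the mouse ventricle, where the action potential is short, the fast transient outward current and several delayed rectifiers carry most of the repolarizing charge. Kcnd2 encodes Kv4.2, a pore subunit of the transient outward channel, and Kcnip2 encodes KChIP2, the calcium-binding partner that brings Kv4 channels to the membrane and slows their inactivation. Kcnj2 encodes Kir2.1, the inward rectifier of the resting potential. Kcnj11 (Kir6.2) and Abcc9 (the sulfonylurea receptor SUR2) together form the channel that opens when cellular ATP falls. Kcnq1, Kcnh2 and Kcna5 encode pores of the slow, the rapid (ERG) and the ultrarapid (Kv1.5) delayed rectifiers.

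Kcnd2 and Kcnip2 encode the pore and partner of one channel and their probes gave the estimates farthest above 0, so the 250 bases before their annotated starts are shown (RefSeq, GRCm38.p6, 5′ to 3′ on the strand of the gene). Capitals mark each match, on either strand, to GGGCGG, the GC box bound by Sp1-like factors, or to CACCC, the box bound by Krüppel-like factors such as Klf15, which in mouse heart is known to control Kcnip2.
Kcnd2, chr6:21215096-21215345, plus strand: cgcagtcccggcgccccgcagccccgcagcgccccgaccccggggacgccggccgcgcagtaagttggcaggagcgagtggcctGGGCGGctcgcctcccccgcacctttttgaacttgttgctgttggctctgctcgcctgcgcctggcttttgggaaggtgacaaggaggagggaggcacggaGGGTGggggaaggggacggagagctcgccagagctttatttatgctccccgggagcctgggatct
Kcnip2, chr19:45816064-45816313, minus strand: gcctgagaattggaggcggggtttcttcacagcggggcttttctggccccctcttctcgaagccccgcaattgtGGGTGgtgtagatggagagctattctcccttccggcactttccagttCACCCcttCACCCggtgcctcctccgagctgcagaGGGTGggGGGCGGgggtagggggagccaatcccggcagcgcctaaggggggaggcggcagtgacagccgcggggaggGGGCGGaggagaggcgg

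The 2 motifs do not overlap each other in these windows. The Kcnip2 window holds 4 matches to CACCC, at 176, 129, 121 and 94 bases before the start, and 2 to GGGCGG, while the Kcnd2 window holds 1 of each. CACCC was present in 52.0% of 32851 annotated promoter windows of this length and GGGCGG in 32.7%, so both are common. Promoter windows were listed for 6 of the 8 genes. The clock-type E-box CACGTG, found in 6.02% of windows, was present among the 6 only in Kcnj2, and TATAAA (12.4%) in none of them. A match is a description of the letters and not evidence of binding. The annotated spans of Kcnip2, Abcc9 and Kcnh2 cover their windows, so these windows precede a start inside the gene. The Kcnh2 window, at 24329592 to 24329841, lies well inside a span of 24319589 to 24351684.

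The members' values depend on one feature of the whole series. Raw signal fell into 2 ranges, a low one of 8 arrays whose medians lay between 48.6 and 53.3 and a high one of 4 arrays between 130.5 and 138.6 (arbitrary intensity units). The high-background arrays were exercised replicates 2, 3 and 6 and sedentary replicate 2. After background correction and quantile normalization, 37.8% of all probes kept still differed between the ranges with group in the fit (limma, adjusted p under 0.05). Liver transcripts also stood apart, with a list mean of 10.91, 12.43 and 12.97 in exercised replicates 1, 5 and 6, 6.75 to 7.83 in the other exercised arrays and 6.18 to 8.49 in sedentary arrays. Exercised replicates 1 and 5 are of low background, so comparisons within the low-background arrays mix the group with liver transcripts. Cardiomyocyte markers, 7 of 8 listed genes, were at 14.03 ± 0.06 in exercised and 14.04 ± 0.10 in sedentary hearts (mean log2 intensity, SD, n = 6). Endothelial markers (6 of 7 genes) were at 9.21 to 9.52 in exercised and 9.51 to 9.81 in sedentary arrays, and macrophage markers (6 of 8) at 8.52 to 8.87 and 8.99 to 9.52. In whole-heart RNA, fewer cells of a type and less RNA per cell cannot be told apart.

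The transient outward channel gave the estimates farthest from 0. Of all 17098 probes, 0.0877% were called between the groups at an adjusted p under 0.05, 15 probes in number, and 0 of the 13 member probes were among them. Kcnip2 was measured by 3 probes, numbered here by falling mean. Probe 1, detected on all 12 arrays, read 7.73, 8.70, 7.72, 7.53, 7.48 and 9.01 in exercised replicates 1 to 6 and 7.58, 8.81, 6.99, 6.97, 6.99 and 7.34 in sedentary replicates 1 to 6 (log2 intensity). The highest 3 values came from high-background arrays, exercised replicates 2 and 6 and sedentary replicate 2, and the groups overlapped. The group means were 8.03 ± 0.66 and 7.45 ± 0.71 (SD, n = 6), and the log2 fold change was 0.59 (SE 0.33, adjusted p = 0.41 in limma). The 95% interval of the difference ran from 0.915-fold to 2.46-fold, so a rise of more than 2-fold and a small fall both lie inside it.

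Kcnip2 probe 2 read 5.51, 5.86, 5.67, 5.24, 5.34 and 6.67 in exercised and 5.01, 6.52, 5.02, 4.74, 5.13 and 5.14 in sedentary replicates 1 to 6, a log2 fold change of 0.46 (SE 0.29, adjusted p = 0.45). Probe 3 read 5.20, 5.94, 5.35, 5.08, 5.14 and 6.51 in exercised and 4.56, 6.48, 4.73, 4.64, 4.82 and 4.73 in sedentary replicates, a log2 fold change of 0.54 (SE 0.33, adjusted p = 0.43). In both, sedentary replicate 2 lay above 5 of 6 exercised arrays while the other 5 sedentary arrays lay below every exercised array. Probe 2 was detected in 6 exercised and 2 sedentary arrays, and probe 3 in 5 exercised arrays and 1 sedentary array. Both therefore passed the filter largely through the group where they read higher. The 3 probes, annotated to different transcripts of the gene, varied together over the 12 arrays, with Pearson r of 0.94 to 0.98 as a description, and of 0.55 to 0.88 over the 8 low-background arrays.

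The background range and the groups were unevenly mixed, with 3 exercised arrays among the 4 of high background. With both terms in one fit, Kcnip2 was higher on high-background arrays by 1.16 (SE 0.22), 0.99 (SE 0.20) and 1.15 (SE 0.22) for probes 1 to 3 (limma adjusted p = 0.0012, 0.0018 and 0.0011). The exercise estimates in that fit were 0.20, 0.13 and 0.16 (adjusted p = 0.77, 0.86 and 0.82 in limma). Over all probes, 0.216% were called for exercise with this block. Before any correction, probe 1 read 442 to 1137 intensity units on the 4 high-background arrays and 108.9 to 154.9 on the 8 others. The part of the background range in the Kcnip2 levels beyond these values was not tested.

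Within the 8 low-background arrays, 3 exercised and 5 sedentary, the Kcnip2 estimates were 0.41 (SE 0.16), 0.36 (SE 0.17) and 0.45 (SE 0.16). Their 95% intervals on the log2 scale were 0.07 to 0.75, -0.003 to 0.72 and 0.10 to 0.80. The adjusted p values were 0.26, 0.37 and 0.24 in limma, where 0.0643% of all probes were called. For probes 2 and 3 all 3 exercised arrays lay above all 5 sedentary arrays, as also for probe 2 of Kcnh2, and 9.66% of all probes had groups that did not overlap in this subset. Kcnip2 probes 2 and 3 passed the filter largely through the exercised arrays, so their separation is a description only. Within the 4 high-background arrays, 3 exercised against the lone sedentary replicate 2, the differences were -0.33, -0.45 and -0.55. Whether the exercise effect differs between the ranges was not tested. Without sedentary replicate 2 the estimates were 0.86, 0.71 and 0.84, with adjusted p of 0.087, 0.089 and 0.073 in limma. All high-background arrays left in that fit are exercised, so its estimates mix the group with the background range. It called 266 of all probes, against 15 with all 12 arrays.

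**Figure D1:**
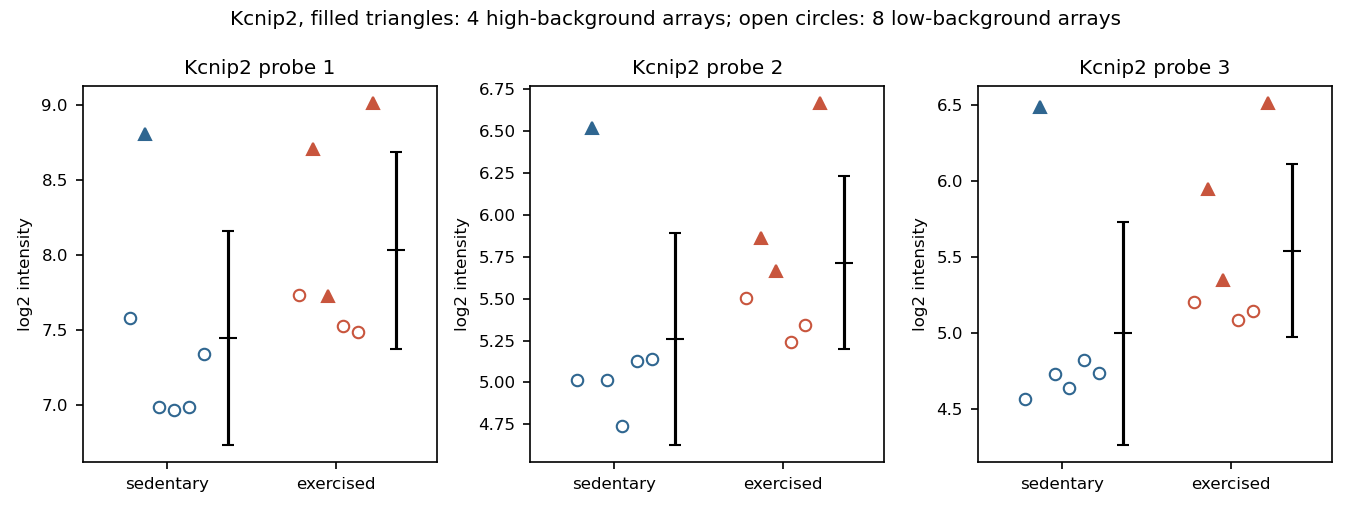
Log2 intensity of the 3 Kcnip2 probes in sedentary and exercised arrays, with group means and SD (n = 6). Filled triangles are the 4 high-background arrays and open circles the 8 low-background arrays; sedentary replicate 2, the only filled triangle of its group, reads 8.81, 6.52 and 6.48.

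Kcnd2 probe 1 read 9.42, 10.18, 10.25, 9.50, 9.29 and 9.52 in exercised and 9.46, 9.86, 9.29, 9.22, 9.42 and 9.11 in sedentary replicates 1 to 6. The 4 highest values were those of the 4 high-background arrays, exercised replicates 2, 3 and 6 and sedentary replicate 2, and the groups overlapped. The log2 fold change was 0.30 (SE 0.18, adjusted p = 0.42 in limma), with a 95% interval of 0.946-fold to 1.61-fold. Probe 2 gave 0.27 (SE 0.19, adjusted p = 0.48), with exercised values of 6.81 to 7.83 and sedentary values of 6.48 to 7.49. With the background range in the fit the exercise estimates were 0.11 and 0.09, and the high-background arrays were higher by 0.58 (SE 0.13) and 0.57 (SE 0.15). In limma the adjusted p values of that range effect were 0.0032 and 0.0094. Within the low-background arrays the estimates were 0.10 and 0.17. Without exercised replicates 1, 5 and 6, the arrays richest in liver transcripts, probe 1 gave 0.58 (SE 0.19, adjusted p = 0.33 in limma) and probe 2 gave 0.39 (SE 0.24, adjusted p = 0.43). Of the exercised arrays that then remain, replicates 2, 3 and 4, the first 2 are of high background. Over the 12 arrays the lead probes of the pore Kcnd2 and its partner Kcnip2 had a Pearson r of 0.59, below that of the 2 Kcnd2 probes with each other (0.78). Over the 8 low-background arrays these values were 0.40 and 0.46, close to each other.

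The inward rectifier Kcnj2, measured by 1 probe detected on all arrays, read 6.12, 6.27, 6.07, 5.75, 6.10 and 6.86 in exercised and 6.32, 6.32, 6.06, 6.01, 6.33 and 6.24 in sedentary replicates 1 to 6. Exercised replicate 6 was the highest and exercised replicate 4 the lowest of the 12, while the sedentary arrays kept within 0.32 log2 units of each other. The log2 fold change was -0.02 (SE 0.16, adjusted p = 0.97 in limma), it turned positive with median scaling, cyclic loess and the deposited values, and its 95% interval was 0.779-fold to 1.25-fold.

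Kcnj11, the pore of the ATP-sensitive channel, read 6.57, 6.01, 6.33, 6.51, 6.44 and 5.62 in exercised and 6.56, 6.02, 6.42, 6.14, 6.36 and 6.71 in sedentary replicates 1 to 6. The lowest 3 values were those of high-background arrays, exercised replicates 6 and 2 and sedentary replicate 2, and the groups overlapped. The log2 fold change was -0.12 (SE 0.18, adjusted p = 0.73 in limma) and positive, at 0.12, with median scaling, a setting in which all probes together had a median of 0.26. High-background arrays were lower by -0.48 (SE 0.15, adjusted p = 0.020), opposite to Kcnip2 and Kcnd2, and within the low-background arrays the exercise estimate was 0.07.

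Abcc9, the regulatory subunit that pairs with Kir6.2 in heart muscle and with Kir6.1 in vessels, had 4 probes of which 2 were kept. Probe 1 read 9.68 to 10.80 (median 10.13) in exercised and 9.59 to 10.46 (median 9.86) in sedentary arrays, and exercised replicates 2 and 3 were the highest. Its log2 fold change was 0.24 (SE 0.20, adjusted p = 0.56 in limma). Probe 2 ranged from 8.51 to 9.02 in exercised and from 8.46 to 8.94 in sedentary arrays, with a log2 fold change of -0.02 (SE 0.11, adjusted p = 0.94) that was positive, at 0.33, with median scaling. The probes differed in how they followed the background range. Probe 1, annotated to another transcript than the rest, was higher on high-background arrays by 0.68 (SE 0.14, adjusted p = 0.0022), and probe 2 by 0.09 (SE 0.12, adjusted p = 0.58). The remaining Abcc9 probes were detected on 4 and 1 of the 12 arrays and were not tested. Markers of pericytes and smooth muscle, cells that also express Abcc9, had a list mean of 8.94 to 9.06 in exercised and 9.18 to 9.45 in sedentary arrays (8 of 9 listed genes). Their log2 fold changes differed by gene, from -0.70 for Acta2 to 0.16 for Des. Notch3, Tagln, Myh11 and Pdgfrb lay between -0.46 and -0.37, Cspg4 was at -0.10 and Rgs5 at -0.04. The part of these markers in the Abcc9 values was not tested.

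Among the delayed rectifiers, Kcnh2 was read by 4 probes, of which 3 were kept. Probe 1 read 8.96 to 9.37 (median 9.15) in exercised and 8.91 to 9.29 (median 9.05) in sedentary arrays, a log2 fold change of 0.08 (SE 0.10, adjusted p = 0.70 in limma). Probe 2 read 8.83, 8.71, 8.93, 8.65, 8.66 and 8.69 in exercised and 8.62, 8.77, 8.54, 8.55, 8.49 and 8.23 in sedentary replicates. All 6 exercised values of probe 2 lay above 5 of the 6 sedentary values, and only sedentary replicate 2 overlapped with them. Its log2 fold change was 0.21 (SE 0.10, adjusted p = 0.35, the smallest among the members), with a 95% interval of 0.997-fold to 1.34-fold. Probe 3, near background and detected on 6 arrays, gave 0.14 (SE 0.15, adjusted p = 0.64). None of the 3 probes passed the test between background ranges (adjusted p of 0.37, 0.28 and 0.23 in limma). Within the low-background arrays they gave 0.23 (SE 0.10), 0.23 (SE 0.11) and 0.22 (SE 0.17), and within the high-background arrays -0.16, 0.01 and -0.34. The fourth probe was detected on 0 of 12 arrays.

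Kcna5, the Kv1.5 pore, read 7.35, 7.02, 7.39, 7.57, 7.29 and 6.91 in exercised and 7.39, 7.16, 7.57, 7.46, 7.34 and 7.93 in sedentary replicates 1 to 6. Sedentary replicate 6 was the highest and exercised replicates 6 and 2 were the lowest, and the groups overlapped. The log2 fold change was -0.22 (SE 0.15, adjusted p = 0.45 in limma) and turned to 0.10 with median scaling, with a 95% interval of 0.691-fold to 1.06-fold. It was -0.12 with the background range in the fit and -0.14 within the low-background arrays. Kcna5 is expressed in atria as well as ventricles, and atrial marker levels varied widely between samples: the mean of 5 atrial markers ran from 11.31 to 13.30 in exercised and from 10.37 to 13.49 in sedentary arrays. With this mean as a covariate the Kcna5 estimate was -0.23.

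Kcnq1 could not be compared. Its 2 probes were detected on 1 and 0 of the 12 arrays and read 4.41 to 5.02 and 4.32 to 4.75, at the level of background, so these probes place no bound on a change. Kcne1, the accessory subunit that joins Kcnq1 in the slow delayed rectifier, was detected on all 12 arrays. It read 7.48 to 8.75 (median 8.27) in exercised and 7.96 to 9.36 (median 8.84) in sedentary arrays, a log2 fold change of -0.51 (SE 0.28, adjusted p = 0.40 in limma). Its 4 lowest values were those of the 4 high-background arrays, and with the range in the fit the estimate was -0.17.

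**Figure D2:**
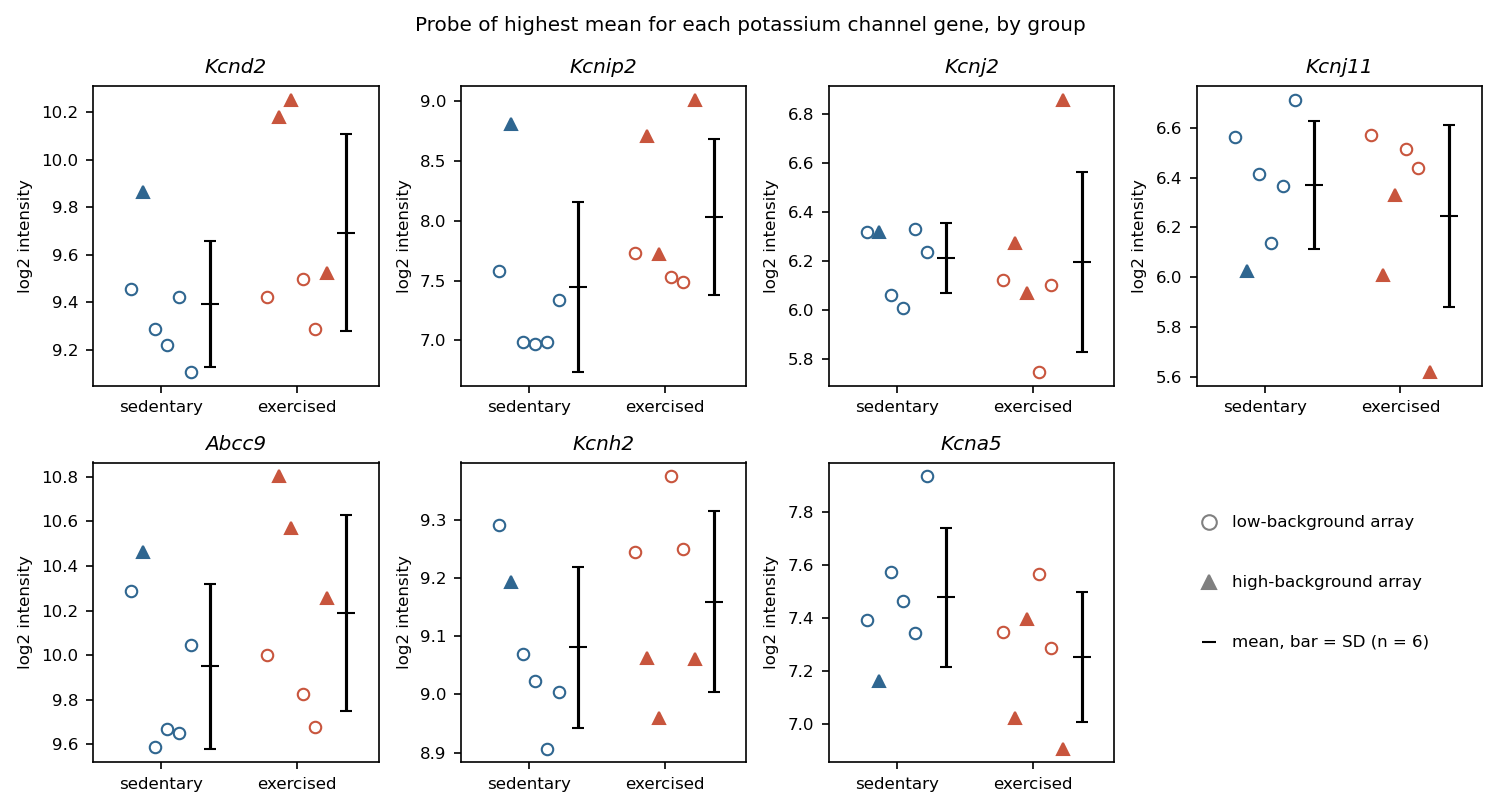
Log2 intensity of the probe of highest mean for each of the 7 potassium channel genes that were detected, by group, with mean and SD (n = 6). Triangles are high-background arrays; they hold the 4 highest values of Kcnd2, the 3 highest of Kcnip2 and the 3 lowest of Kcnj11, and the groups overlap in every panel.

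As a set, 9 of the 13 member probes were positive with a median of 0.21, against 45.3% positive and a median of -0.03 over all 17098 probes. These probes are few, several share a gene, and those near background passed the filter partly through the exercised arrays, so the median is a description. At an unadjusted p under 0.05 in limma there were 0 of 13, where 14.6% of all probes passed. In 0 of 13 did the exercised and sedentary arrays not overlap, against 1.03% of all probes. With the background range in the fit the members' median was 0.09. Within the low-background arrays 3 of 13 had an unadjusted p under 0.05 in limma, namely probes 1 and 3 of Kcnip2 and probe 1 of Kcnh2, against 13.7% of all probes. Of these, Kcnip2 probe 3 passed the filter largely through the exercised arrays. Between high- and low-background arrays 7 of 13 probes were called, against 37.8% of all probes. Of the 7, 6 were higher, where 18.5% of all probes were called higher, and Kcnj11 was lower.

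**Figure D3:**
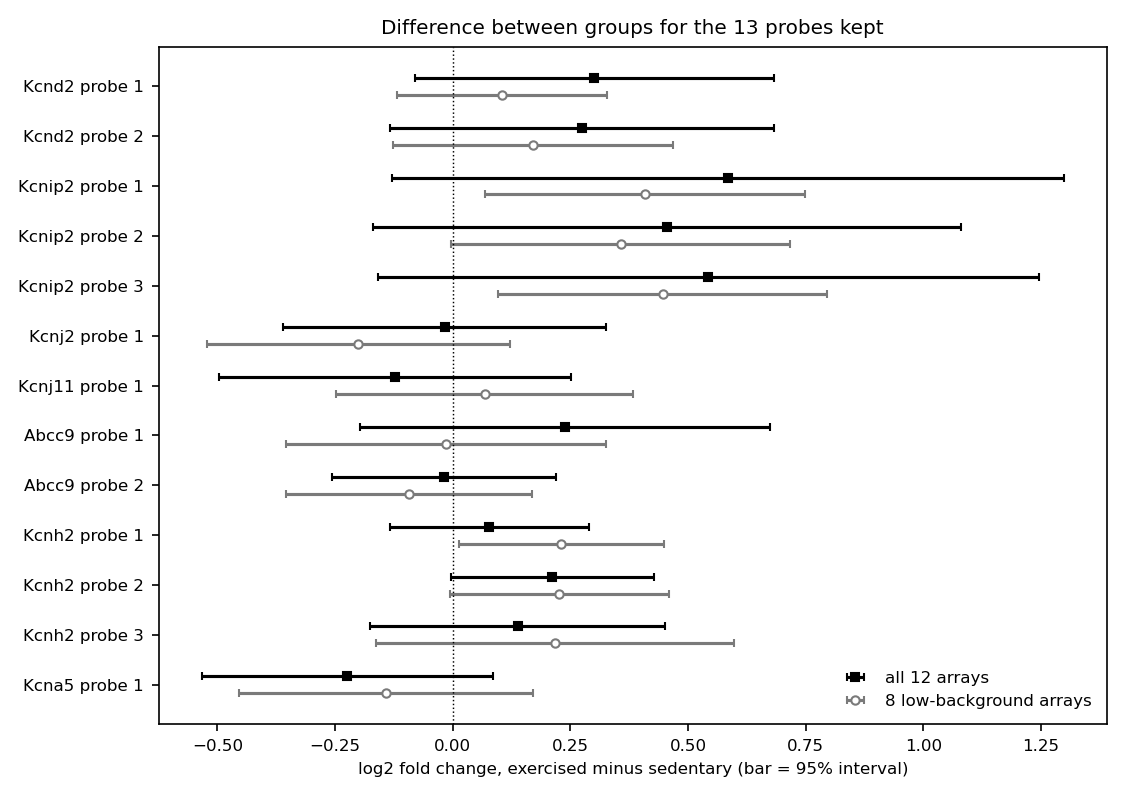
Log2 fold change of exercised over sedentary hearts for the 13 probes kept, with 95% intervals, over all 12 arrays (black squares) and over the 8 low-background arrays (open circles). All 13 black intervals include 0; the widest are those of Kcnip2, from -0.17 to 1.30 across its probes, and among the open circles the Kcnip2 intervals are narrower.

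In data simulated for this comparison over 17098 probes, with noise independent between probes, the fit recovered 50.7% of 1.5-fold changes, 83.6% of 2-fold changes and 97.0% of 3-fold changes. The changed probes were drawn at random from all probes and no background range was simulated. These shares are therefore averages over all probes and do not apply to the member probes, least of all to Kcnip2 with its wide spread. The upper bounds of the measured 95% intervals were at most 1.37-fold for the 3 Kcnh2 probes, Kcnj2, Kcnj11, Kcna5 and probe 2 of Abcc9, and at most 1.61-fold for both Kcnd2 probes and probe 1 of Abcc9. For Kcnip2 they were 2.11-fold to 2.46-fold. Where the estimate was negative, the lower bounds were 0.69-fold for Kcna5, 0.71-fold for Kcnj11, 0.78-fold for Kcnj2 and 0.84-fold for probe 2 of Abcc9. All these bounds hold under quantile normalization only. With median scaling Kcnh2 probe 2 gave a log2 fold change of 0.55 (SE 0.31), above its upper bound of 0.43 on that scale. In that setting all probes together had a median of 0.26.

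For comparison, lists of other channel genes, of the sodium pump and of transcriptional regulators of channel genes were read from the same fit. Together they held 107 genes, of which 52 were kept with 71 probes; 0 of these probes were called, 2 had an unadjusted p under 0.05 in limma and were higher, and 10 were lower, where 4.97% and 9.66% of all probes were. Their median was 0.03. Of the other inward rectifiers, Kcnj8 (Kir6.1), the vascular partner of SUR2, read 8.03 to 8.79 (median 8.59) in exercised and 8.67 to 9.25 (median 8.87) in sedentary arrays, a log2 fold change of -0.36 (SE 0.14, adjusted p = 0.27). Its groups overlapped, and the part of the pericyte and smooth muscle markers given above in the Kcnj8 value was not tested. Kcnj3 and Kcnj5, the subunits of the acetylcholine-activated channel, which is most abundant in atria, gave 0.52 (SE 0.24, adjusted p = 0.34) and 0.41 (SE 0.17, adjusted p = 0.30). Both were higher on high-background arrays, and with the range in the fit they gave 0.28 and 0.25. Kcnj12 (Kir2.2), which joins Kir2.1 in the inward rectifier, gave 0.16 (SE 0.19) and -0.04 with the range in the fit.

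All 5 two-pore channel probes, from 4 genes, were negative, from -0.37 to -0.11, with 0 called. Of all 17098 probes, 9346 were negative. Kcnk13 gave -0.37 (SE 0.16, adjusted p = 0.31 in limma) and -0.25 with the range in the fit. Kcnk3 (TASK-1), an acid-sensitive leak channel, gave -0.11 (SE 0.17) and 0.05 with the range in the fit. Kcnn2 (SK2), a channel opened by calcium, read 4.89 to 5.62 (median 5.06) in exercised and 5.44 to 6.04 (median 5.75) in sedentary arrays, so that only exercised replicate 4 lay inside the sedentary range. Its log2 fold change was -0.58 (SE 0.15, adjusted p = 0.15 in limma), and with array weights, which called 576 probes in all, it passed (adjusted p = 0.040). The Kcnn2 probe was detected on 8 of the 12 arrays, near background. Among other voltage-gated pores, Kcnc4 (Kv3.4) gave -0.32 (SE 0.17), and among accessory subunits the smallest p belonged to Lgi1, at -0.36 (SE 0.17, adjusted p = 0.34 in limma). The second Lgi1 probe gave 0.12 (SE 0.22).

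Of 11 listed sodium channel genes, 3 were kept, with 4 probes, and 0 were called. Scn4b, a beta subunit of the cardiac sodium channel, read 8.15 to 9.09 (median 8.78) in exercised and 8.12 to 8.86 (median 8.54) in sedentary arrays, a log2 fold change of 0.21 (SE 0.18, adjusted p = 0.55); its second probe gave -0.04. Genes whose products bind sodium channels were positive in 9 of 10 probes, with a median of 0.26, where 45.3% of all probes were positive. These 10 probes come from 6 genes. On high-background arrays 5 of the 10 were called higher and 1 lower, where 18.5% of all probes were called higher and 37.8% either way. Fgf13, which modulates sodium channel inactivation, gave 0.38 (SE 0.17, adjusted p = 0.32) and 0.21 with the background range in the fit. The pacemaker channel Hcn2 gave -0.20 (SE 0.19) and Fxyd1 (phospholemman), the regulator of the sodium pump, -0.45 (SE 0.26), which was -0.14 with the range in the fit. The second Fxyd1 probe gave -0.46 (SE 0.16, adjusted p = 0.24 in limma).

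Among genes known to regulate channel transcription, Klf15, a circadian activator of Kcnip2, gave 0.03 (SE 0.17, 95% interval -0.33 to 0.39 on the log2 scale). Irx5, which represses Kcnd2 in mouse ventricle, gave 0.08 (SE 0.13), and neither passed the test (adjusted p = 0.94 and 0.79 in limma). Tbx3, a factor of the conduction system, gave -0.44 (SE 0.17, adjusted p = 0.29). One of the probes of Mef2c, a heart muscle transcription factor, gave -0.55 (SE 0.13, adjusted p = 0.11), while its other 3 probes gave 0.05, 0.10 and 0.10. That probe is not the one of highest mean and was named after its values were seen, since it passed with array weights and without sedentary replicate 2.

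**Figure D4:**
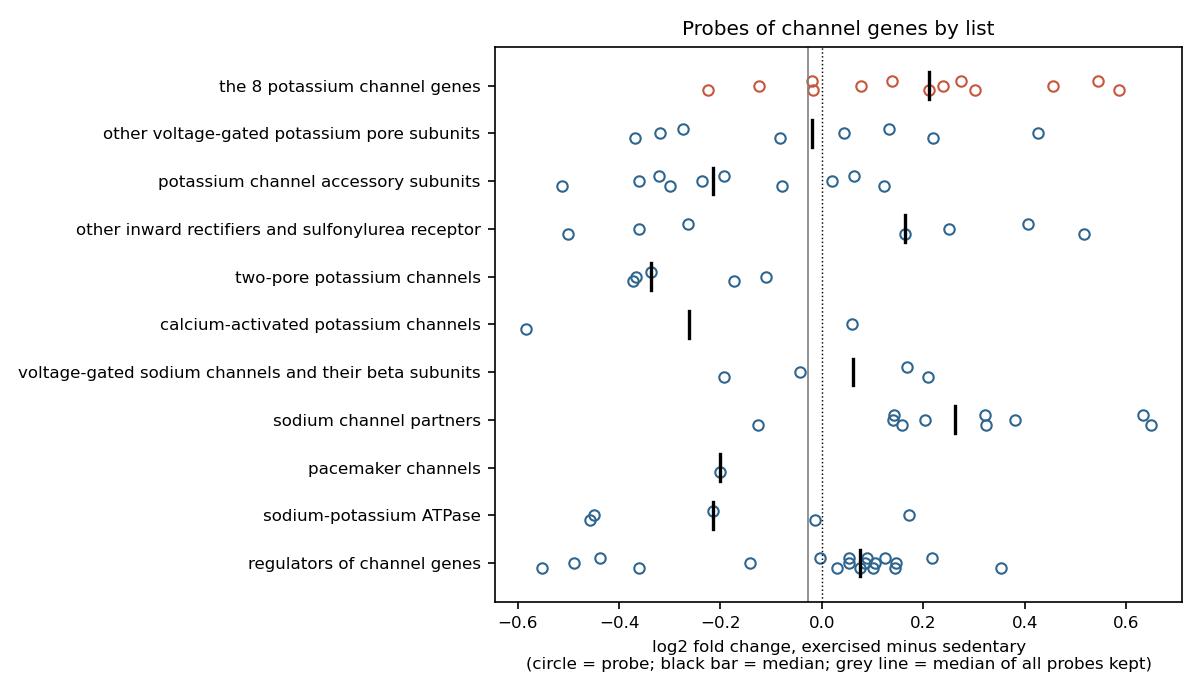
Log2 fold change, exercised over sedentary, of each kept probe (circles) in the 8 potassium channel genes and in 10 comparison lists (other channels and their partners, the sodium pump, and regulators of channel genes), with list medians as black bars. The members' median lies at 0.21, that of sodium channel partners at 0.26 and that of two-pore channels at -0.34, and the grey line marks the median of all probes kept, -0.03.

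The genes most like each member over the 12 arrays were found by Pearson correlation among 9843 named genes. For Kcnip2 they were Rbbp7, Rnf114 and Ddx5 (r of 0.97 each), for Kcnd2 Lipo3, Lrrc39 and Tmx4 (0.97 to 0.98), and for Abcc9 Ipo8, Arhgef6 and Nhlrc2 (0.97 to 0.99). Those of Kcnj11 were Trappc9, Myh14 and Taf6 (0.94 to 0.98), those of Kcna5 Htra3, Aaas and Epc1 (0.92 to 0.94), those of Kcnh2 Mettl1, Slc25a42 and Bhlhe40 (0.82 to 0.84), and those of Kcnj2 Myh6, Hacd3 and Rnase4 (0.81 to 0.83). All the points share the arrays and their background range, and over the 8 low-background arrays the same r ranged from 0.45 for Rnase4 with Kcnj2 to 0.99 for Ipo8 with Abcc9. They are descriptions, chosen as the highest of many.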

How the data were processed

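Gene expression was measured on Illumina mouse beadchips with biotin-labelled whole-heart RNA in 12 samples. The authors deposited bead intensities per probe and array, which per the file headers are not normalized. Each intensity comes with a detection p-value, per the file headers. A second deposited table holds processed values that resemble log2 intensities. The submitters' processing notes name lumi, with no word on the transformation. Intensities were corrected with limma's neqc (offset 16) and quantile-normalized, and the 17098 probes with detection p-values under 0.01 on 6 or more of 12 arrays were kept. Exercised minus sedentary was fitted to all 17098 probes with limma 3.58.1 in R 4.3.3 (intensity trend, Benjamini-Hochberg adjustment, threshold 0.05). Gene names came from the platform annotation; 34885 probes had 1 symbol, 18 several and 10378 none. Arrays were split by the 5th percentile of raw signal at 75. Lead probes have the highest mean of a gene. Named were all members, the 3 genes most like each, and from each other list the called genes, else the one whose lead probe had the smallest p, with genes chosen by role. Promoters came from RefSeq, GRCm38.p6. The fit was tested on simulated data. The members, lists and settings were chosen with earlier results of these data known. The number of arrays limits precision.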

Additional observations from a re-analysis of the deposited data

Results flagged for a closer look

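Among 76 groups of 6 values examined, 5 held an array far from the rest, where chance gives about 3.8. Sedentary replicate 2, the high-background array of its group, stood high for the 3 Kcnip2 probes, which read the same gene and are not independent. It was at 8.81 for probe 1, where the next sedentary array was at 7.58, at 6.52 for probe 2, with the next at 5.14, and at 6.48 for probe 3, with the next at 4.82 (log2 intensity). Exercised replicate 2, also of high background, stood high at 7.83 for Kcnd2 probe 2, with the next exercised array at 7.16, and low at 5.20 for Kcnk13, with the next at 5.61.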

How the results depend on the processing

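No member probe was called in any of the 17 other settings or the 12 fits that left out an array, and the smallest adjusted p among them was 0.073 in limma. The number of probes called over all probes, 15, was 0 with median scaling and in the high-background arrays alone, where the lone sedentary array is assumed to vary like the exercised ones; 673 and 200 probes there had an unadjusted p under 0.05 in limma. It was 1 each with cyclic loess, the deposited values, no filter, no intensity trend, the liver list mean, the atrial list mean and with the 3 liver-rich arrays left out; 3 with a replicate block, 25 over probes detected on all 12 arrays, 37 with the background range as a block and 576 with array weights. It ran from 1 to 266 when an array was left out, the highest without sedentary replicate 2. Of the 71 probes in the comparison lists, 2 were called with array weights, the channel Kcnn2 and the regulator Mef2c, and 0 to 1 when an array was left out. The replicate block called 0 member probes. Same-numbered arrays had correlations of deviations from -0.32 to 0.61, and only replicates 2 and 5 of the exercised arrays correlated best with their own number. These correlations also carry the background range, so they cannot settle whether the numbers pair the samples, which the labels do not state.

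Median scaling gave a median of 0.26 over all probes and 0.55 over the members, and values turned positive for Kcnj2 (0.27), Kcnj11 (0.12), Abcc9 probe 2 (0.33), Kcna5 (0.10), Kcnk3 (0.23) and Hcn2 (0.14). In the high-background arrays alone the sign turned for Kcnd2 probe 2 (-0.13), Kcnip2 (-0.33, -0.45 and -0.55), Kcnh2 probes 1 and 3 (-0.16 and -0.34), Kcnj2 (0.081), Abcc9 probe 2 (0.060), Kcnc4 (0.22), Kcnk3 (0.084), Kcnk13 (0.012), Hcn2 (0.016), Klf15 (-0.011) and Tbx3 (0.024). With the range as a block it turned for Kcnj11 (0.038), Kcnj12 (-0.042) and Kcnk3 (0.046), and in the low-background arrays for Kcnj11 (0.068), Abcc9 probe 1 (-0.014), Kcnj12 (-0.087) and Kcnk3 (0.031). With the liver mean it turned for Kcnj11 (0.0051), Abcc9 probe 2 (0.10) and Kcnk3 (0.038), and without the liver-rich arrays for Abcc9 probe 2 (0.093) and Irx5 (-0.012). With the atrial mean it turned for Kcnj2 (0.0098) and Abcc9 probe 2 (0.027), with array weights for Kcnj11 (0.021), with cyclic loess for Kcnj2 (0.045) and with the deposited values for Kcnj2 (0.0022). With 1 array left out, Kcnj2 ran from -0.15 to 0.073, Kcnj11 from -0.19 to 0.0020, Abcc9 probe 2 from -0.080 to 0.023, Klf15 from -0.050 to 0.17 and Irx5 from -0.018 to 0.12. The cause of these changes was not tested. Signal near background limits Kcnip2 probes 2 and 3, Kcnh2 probe 3, Kcnq1 and Kcnn2.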
